A study of Mus musculus with 6 samples.

Results

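Autophagy is the route by which a cell wraps part of its own cytoplasm in a double membrane, the autophagosome, and delivers it to the lysosome for breakdown. The 38 genes described here encode its core machinery and the receptors that load cargo, and were taken by gene symbol from the 16775 genes of the deposited table. All 38 were found in the table, and all 38 passed the filter on low counts that left 12619 genes for testing. They were divided by role into 5 genes of initiation, 6 of nucleation, 5 that supply or mark the membrane, 11 of conjugation, 5 ATG8 proteins, 5 cargo receptors and 1 tethering factor.

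The cells were osteoclasts, the multinucleated cells that resorb bone, grown from bone marrow macrophages of wild-type mice. Both groups received M-CSF at 30 ng/ml and RANKL at 50 ng/ml, the cytokines that drive macrophages into osteoclasts. One group was additionally treated with verapamil, a drug that blocks L-type calcium channels, and the other served as control. Sample titles give day 5 and the treatment protocol runs to day 7, and the sources used here give neither the dose nor the timing of the drug. The comparison used 3 verapamil libraries and 2 control libraries (replicates 1 and 3), with 20202340 to 21494523 estimated counts each. Control replicate 2 was not analysed here. The labels do not tie replicates to separate animals or cultures, and the p-values therefore cover only library-to-library spread, which may be technical.

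The machinery works in steps. A kinase complex around ULK1 starts the process, a lipid kinase complex around VPS34 marks the membrane, and 2 linked conjugation reactions attach the small ubiquitin-like ATG8 proteins (the LC3 and GABARAP families) to it. Receptors such as p62 then tie ubiquitin-tagged cargo to ATG8 proteins, and the closed vesicle fuses with a lysosome. In osteoclasts, parts of the conjugation machinery also serve at the ruffled border, the membrane through which acid and proteases are secreted. Inherited variants in the genes of p62 and optineurin are linked to Paget disease of bone, and loss of PLEKHM1 causes osteopetrosis.

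With verapamil, 7 of the 38 autophagy genes rose and 0 fell (edgeR's quasi-likelihood test, Benjamini-Hochberg adjusted p under 0.05 over all genes tested). The risen genes were Tecpr1, Optn, Gabarapl1, Atg12, Atg7, Tax1bp1 and Atg13. The changes ran from 1.38-fold for Atg13 to 3.11-fold for Tecpr1. Over all genes tested, 9.99% were called higher and 15.4% lower (25.4% in either direction), against 18.4% and 0 of the autophagy genes. At an unadjusted p under 0.05, 16 of the autophagy genes were higher and 1, Atg101, was lower (17.5% and 22.0% of all genes). DESeq2's Wald test called 10 higher and 0 lower (12.7% and 15.2% of all genes). Upper quartile scaling called 7 higher and Wipi1 lower (7.25% and 18.5% of all genes).

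The median log2 fold change of the 38 genes was 0.20, beside -0.01 for all genes tested, and 33 of the 38 estimates were above 0 (48.8% of all genes). The groups did not overlap for 24 genes higher with verapamil and 2 lower, and overlapped for 12. Over all genes tested 27.7% were higher without overlap and 29.0% lower, 56.7% together. By step, 1 of 5 initiation genes, 2 of 11 conjugation genes, 1 of 5 ATG8 genes, 2 of 5 cargo receptor genes and the tethering gene rose. None of the 6 nucleation genes or the 5 membrane genes passed edgeR's test, and 3 and 2 of them were higher at an unadjusted p under 0.05 (17.5% of all genes). DESeq2's Wald test called 1 of these 11 genes, Atg2b. The number of calls depended on the controls: without control replicate 1, 12 genes passed (11 higher and 1 lower, where 16.1% of all genes were called higher and 19.2% lower), and without control replicate 3, 23 passed (20 higher and 3 lower, where 31.0% and 29.8% of all genes were). In either direction 35.3% and 60.9% of all genes were called in these 2 fits. Without verapamil replicate 1, 2 or 3 the fits called 6 of the 38 genes each, all higher, and 11.8%, 12.4% and 11.6% of all genes in either direction. All 7 genes were among the calls in both fits without a control, in which 1 control stands for the group and is assumed to vary like the verapamil libraries.

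**Figure D1:**
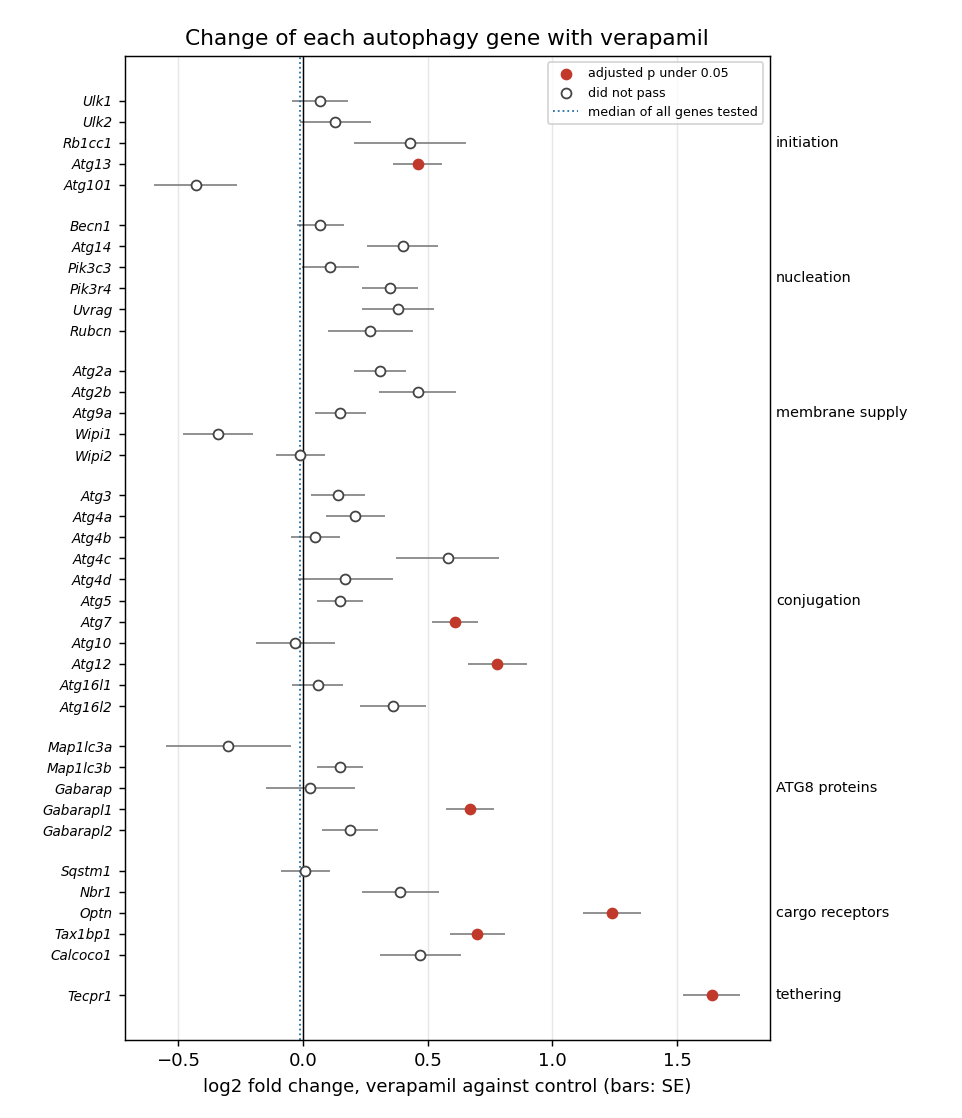
Log2 fold change of each of the 38 autophagy genes, verapamil against control, with its standard error as a horizontal bar, grouped by step. Red points passed the test and open points did not; the dotted line is the median of all genes tested, and Tecpr1 and Optn lie farthest to the right at 1.64 and 1.24.

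Libraries from whole cultures cannot tell fewer cells of a type from less RNA per cell. Marker genes of several cell types moved with the groups, where 15.4% of all genes tested were called lower and 9.99% higher. Of 10 osteoclast markers 7 were lower and 1 (Atp6v0d2) higher with verapamil, and their summed level was 7025 to 7703 CPM in controls and 3304 to 3454 CPM with verapamil. All 10 were detected in both groups. Of 10 macrophage markers 8 were lower (summed level 7259 to 7945 against 4920 to 5057 CPM), and of 9 tested stromal and osteoblast markers 7 were lower (972.3 to 1162 against 431.6 to 447.6 CPM). Of 6 tested dendritic cell markers 5 were lower and 1 (Itgax) higher (162.7 to 192.8 against 135.6 to 141 CPM). Most of the sum with verapamil was Itgax, at 120 to 125.5 CPM (49.89 and 65.36 CPM in controls). Log2 fold changes of the 5 lower ones, Cd74, Mgl2, H2-Aa, H2-Ab1 and Zbtb46, ran from -3.36 (Cd74) to -1.64 (Zbtb46). Flt3 and Ccr7 were at or near 0 throughout. The B cell markers in the table, Cd79a and Cd79b, summed to at most 0.674 CPM in any library. In the T cell list Cd8a was low, at 0.57 to 1.17 CPM, and Cd4, which myeloid cells can also express, summed with it to 209.4 to 297.7 CPM in controls and 392.9 to 425.8 with verapamil. Neutrophil and erythroid markers summed to at most 7.42 and 0.31 CPM, and Hba-a1 was at 0. The part of these shifts in the results below was not tested.

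Promoter letters of the genes are given first, because a motif shared by lysosome and autophagy genes, the CLEAR element bound by TFEB and its relatives, is often looked for in this pathway. RefSeq promoter windows on GRCm38.p6 were found for 32 of the 38 genes (not for Rb1cc1, Becn1, Pik3c3, Atg12, Atg16l1 and Map1lc3a), and the 250 bases before each start were searched on both strands. The CLEAR core GTCACGTG was present in the windows of Atg7 and Atg3, that is 2 of 32 genes, against 1.85% of all 32851 windows and 3.79% of 10066 tested genes. The shorter E-box CACGTG, which the core contains, was present in 4 (Atg3, Atg5, Atg7 and Rubcn), against 6.02% of windows and 9.86% of tested genes. The FOXO letters GTAAACA occurred in 0 of the 32 genes and 3.17% of windows, and in 2.66% of tested genes. The antioxidant element letters TGACNNNGC occurred in 3 (Atg13, Tax1bp1 and Ulk2), against 10.2% of windows and 14.0% of tested genes. A match is a description of letters and not a binding site.

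Printed below are the CLEAR-bearing stretches of Atg7, which rose, and Atg3, which did not pass the test, and stretches before a start of the 2 genes with the largest changes, Tecpr1 and Optn. For Atg7 and Optn the start of the promoter window lies inside the span that RefSeq gives the gene. Capitals mark CLEAR cores, and every stretch runs 5′ to 3′ on the strand of the gene.
Atg7, chr6:114670914-114671013, plus strand, before a start inside the gene: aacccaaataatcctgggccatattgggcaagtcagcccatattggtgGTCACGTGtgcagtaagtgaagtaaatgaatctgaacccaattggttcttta
Atg3, chr16:45158707-45158784, plus strand, before the start: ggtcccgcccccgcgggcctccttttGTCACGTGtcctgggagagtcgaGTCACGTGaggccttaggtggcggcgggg
Tecpr1, chr5:144223616-144223715, minus strand, before the start: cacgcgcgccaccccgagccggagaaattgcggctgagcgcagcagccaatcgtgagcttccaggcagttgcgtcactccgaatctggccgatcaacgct
Optn, chr2:5064118-5064217, minus strand, before a start inside the gene: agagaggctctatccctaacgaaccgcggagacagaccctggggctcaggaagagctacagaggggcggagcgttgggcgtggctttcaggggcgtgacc
The Atg3 stretch holds the core 2 times and the Atg7 stretch 1 time. No core or E-box letters occur in the printed Tecpr1 and Optn stretches.

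Levels of the 38 genes spanned more than 2 orders of magnitude. Values per library are CPM (estimated counts scaled to a common library size) after TMM scaling, and levels of different genes are compared as CPM per kb of transcript. On that scale Sqstm1, the gene of p62, was highest in controls at 486 ± 31.5 CPM per kb (SD, n = 2), and Gabarap followed at 379 ± 108, with library ranges (464 to 509 and 303 to 456) that did not overlap. Gabarapl1 (176 ± 5.53), Map1lc3b (94.8 ± 3.83), Tax1bp1 (54.9 ± 6.84) and Gabarapl2 (44.7 ± 5.11) came next, each separated from the one before. From Gabarapl2 through Map1lc3a (32.3 ± 13.8), Wipi2, Atg7, Tecpr1, Atg5 and Nbr1 down to Atg3 (28.8 ± 2.4), each gene overlapped with its neighbour in the order. Lowest were Atg4d at 2.2 ± 0.626 and Atg16l2 at 1.37 ± 0.113 CPM per kb. With verapamil Tecpr1 moved from the 10th to the 5th highest level (94.2 ± 2.5 CPM per kb, n = 3) and Optn from the 20th to the 13th (29.4 ± 0.822).

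**Figure D2:**
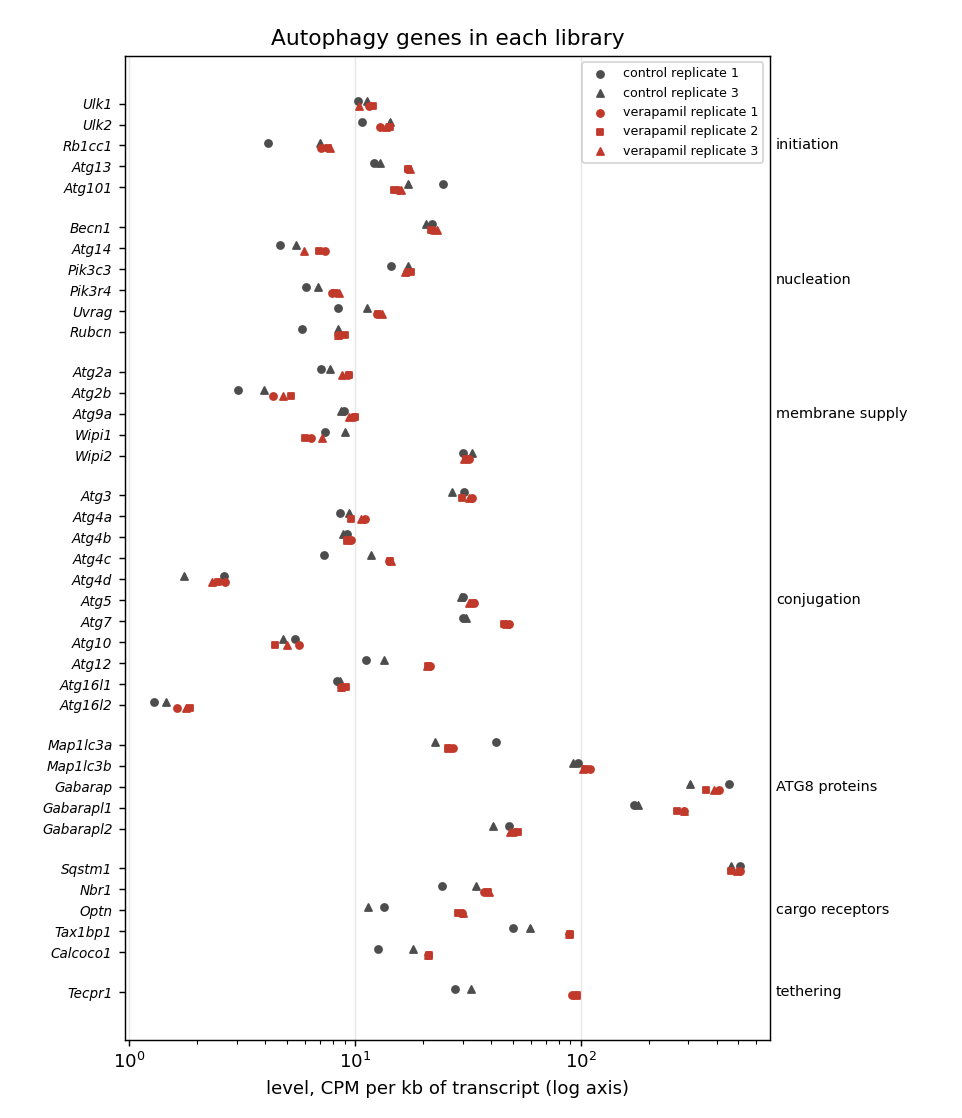
Level of each autophagy gene in every library, in CPM per kb of transcript on a log axis, with controls in grey and verapamil libraries in red and the replicate number as the marker shape. Sqstm1 and Gabarap are highest in both groups, and the red points of Tecpr1 stand clear of the grey ones.

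The initiation complex joins the kinases ULK1 or ULK2 to the scaffold FIP200 (Rb1cc1), ATG13 and ATG101. Atg13, the adaptor that binds the kinase to the scaffold, had 42.97 and 45.85 CPM in control replicates 1 and 3 and 60.89, 60.74 and 62.11 CPM in verapamil replicates 1 to 3. The 3 treated libraries lay close together and above both controls. The log2 fold change was 0.46 (SE 0.0969, edgeR adjusted p = 0.0179). Atg13 did not pass without any 1 of the verapamil replicates (edgeR adjusted p = 0.0866, 0.1 and 0.112 without replicates 1, 2 and 3), while the log2 fold change stayed between 0.42 and 0.51 with any 1 library left out.

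The kinase genes themselves did not pass. Ulk1 had 53.8 and 58.87 CPM in controls and 60.01, 62.86 and 54.22 CPM with verapamil (log2 0.07, SE 0.112, edgeR adjusted p = 0.677). Ulk2 had 61.8 and 81.72 CPM in controls and 74.22, 81.81 and 79.16 with verapamil (log2 0.13, SE 0.142, edgeR adjusted p = 0.526). Both sets of values overlapped between the groups. Rb1cc1, the scaffold, had 31.24 and 53.54 CPM in controls, and its verapamil libraries at 53.96 to 59 CPM were close to control replicate 3 only (log2 0.43, adjusted p = 0.205). With control replicate 1 left out the Rb1cc1 estimate was 0.09, and with control replicate 3 left out it was 0.87 and passed (edgeR adjusted p = 0.000117).

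Atg101, a stabilising partner of ATG13, had the lowest estimate of all 38 genes. Its values were 31.1 and 21.73 CPM in controls and 19.62, 19.01 and 20.31 CPM with verapamil (log2 -0.43, SE 0.166, edgeR adjusted p = 0.11). All treated libraries lay below both controls, but control replicate 3 was closer to them than to control replicate 1. With control replicate 1 left out the Atg101 estimate was -0.14, and with control replicate 3 left out it was -0.66 and passed (edgeR adjusted p = 0.000338).

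The nucleation step is carried by the lipid kinase VPS34 (Pik3c3), its regulatory subunit p150 (Pik3r4) and beclin 1 (Becn1), joined by ATG14 on forming autophagosomes or by UVRAG on endosomes, with rubicon (Rubcn) as an inhibitor of the latter. None of the 6 genes passed the test (edgeR adjusted p from 0.068 to 0.625), and all 6 estimates were above 0, from 0.07 for Becn1 to 0.40 for Atg14. Atg14 had 16.77 and 19.77 CPM in controls and 26.36, 24.84 and 21.29 CPM with verapamil (adjusted p = 0.0874). Pik3r4 had 28.59 and 32.36 against 37.53, 38.53 and 40.22 CPM (log2 0.35, adjusted p = 0.068). Uvrag had 43.42 and 58.32 against 64.87, 65.59 and 67.73 CPM (log2 0.38, adjusted p = 0.106). These 3 genes were higher without overlap (27.7% of all genes), whereas the groups of Becn1, Pik3c3 and Rubcn overlapped. Estimates of the 6 genes ran from 0.001 (Pik3c3) to 0.295 (Atg14) without control replicate 1. They ran from 0.025 (Becn1) to 0.606 (Uvrag) without control replicate 3. With a trend over transcript length removed in each library Uvrag passed (0.222, edgeR adjusted p = 0.0443), where 18.1% of all genes were called higher. Becn1 had 95.78 and 90.42 CPM in controls and 95.81, 95.4 and 101 CPM with verapamil. Becn1 shares 43.9% of its exon bases with Cntd1 on the opposite strand, and 17.6% of those of Uvrag are shared with Gm45187. Strand use in the counting was not stated in these sources.

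The membrane step needs ATG9A, a scramblase on small vesicles, the lipid transfer proteins ATG2A and ATG2B, and the WIPI proteins that read the lipid mark. Atg2a had 44.9 and 49.31 CPM in controls and 59.12, 60.22 and 55.65 with verapamil (log2 0.31, edgeR adjusted p = 0.0773). Atg2b had 22.92 and 29.8 against 32.9, 39.31 and 36.28 CPM (log2 0.46, edgeR adjusted p = 0.0789, and 0.0462 in DESeq2's Wald test). Atg9a, at 35.61 ± 0.614 CPM (SD, n = 2) and 39.46 ± 1.36 CPM (n = 3), had an estimate of 0.15 (adjusted p = 0.309). The same-strand transcript Gm29253 covers 31.8% of the Atg9a exon bases. Wipi1 had 15.19 and 18.53 CPM in controls and 13.08, 12.34 and 14.59 CPM with verapamil, without overlap (log2 -0.34, SE 0.141, adjusted p = 0.13). It passed as lower without control replicate 1 (-0.47, adjusted p = 0.0144) and under upper quartile scaling (-0.45, adjusted p = 0.0483). Wipi2, whose product recruits ATG16L1, had 58.97 and 64.47 CPM in controls and 62.91, 60.95 and 59.59 CPM in treated libraries (log2 -0.01, SE 0.0984, adjusted p = 0.93), with a sign that changed between fits.

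Conjugation runs along 2 branches. In the first, ATG7 activates ATG12, which ATG10 passes to ATG5, and the conjugate binds ATG16L1. In the second, the ATG4 proteases trim the ATG8 proteins, which ATG7 and ATG3 then transfer to lipid with the help of that complex. Atg7, the activating enzyme of both branches, had 76.23 and 79.28 CPM in controls and 121.8, 115.8 and 119 CPM with verapamil. Its treated libraries were all above both controls. The log2 fold change was 0.61 (SE 0.092, edgeR adjusted p = 0.00576), and it stayed between 0.59 and 0.64 when any 1 library was left out.

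Atg12, the ubiquitin-like modifier itself, had 53.13 and 64.34 CPM in controls and 102.9, 99.99 and 99.22 CPM with verapamil. All treated libraries lay above both controls. Its log2 fold change was 0.78 (SE 0.117, edgeR adjusted p = 0.00576), and leaving out a control gave 0.65 (control replicate 1) or 0.92 (control replicate 3).

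The other conjugation genes did not pass the test. Atg5, the acceptor of ATG12, had 69.84 ± 0.898 CPM (n = 2) and 77.72 ± 2.12 CPM (n = 3), without overlap (log2 0.15, SE 0.0917, edgeR adjusted p = 0.252). Atg3 had 59.21 ± 4.94 and 65.16 ± 3.57 CPM (log2 0.14, adjusted p = 0.372), while Atg10 had 8.585 and 7.599 CPM in controls and 8.902, 6.973 and 7.887 CPM with verapamil (log2 -0.03, adjusted p = 0.902). The groups of both overlapped. Atg16l1, the partner that places the complex on the membrane, had 26.02 and 26.98 CPM in controls and 27.25, 28.67 and 27.26 with verapamil (log2 0.06, SE 0.102, adjusted p = 0.656). Its relative Atg16l2 had 8.36 and 9.39 against 10.53, 12.03 and 11.58 CPM (log2 0.36, adjusted p = 0.0978). Thus Atg12 and Atg7 rose, while the estimates of Atg3, Atg5, Atg10 and Atg16l1 were at most 0.15. The difference between genes was not tested.

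Among the 4 protease genes Atg4c had the largest estimate, from 21.71 and 35.22 CPM in controls to 42.2, 42.56 and 43.13 CPM with verapamil (log2 0.58, SE 0.206, edgeR adjusted p = 0.0873). The treated libraries were above both controls, which themselves differed by 0.70 on the log2 scale. Leaving out control replicate 1 gave 0.28 and leaving out control replicate 3 gave 0.97 for Atg4c, both past the threshold (edgeR adjusted p = 0.037 and 6.78e-05), as was DESeq2's Wald test (adjusted p = 0.0319). Atg4b, the main protease for LC3, had 38.29 and 36.97 CPM in controls and 39.94, 38.43 and 38.3 CPM with verapamil (log2 0.05, adjusted p = 0.742). Atg4a had 18.88 and 20.79 against 24.3, 21.12 and 23.31 CPM (log2 0.21, adjusted p = 0.232). Atg4d had 15.73 and 10.46 against 15.79, 14.72 and 13.8 CPM (log2 0.17, adjusted p = 0.519). The groups overlapped for Atg4d and not for Atg4a or Atg4b. Of the 50-base stretches of Atg4a transcripts, 63.6% also occur in the pseudogene Atg4a-ps, and its counts are uncertain. Atg4d shares 19.3% of its exon bases with Kri1.

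ATG8 proteins coat the growing membrane and bind cargo receptors. Gabarapl1 rose, from 202.7 and 211.9 CPM in controls to 338.8, 314.2 and 339.8 CPM with verapamil. The groups did not overlap. The log2 fold change was 0.67 (SE 0.0945, edgeR adjusted p = 0.00458). It shares 28.3% of its exon bases with the opposite-strand transcript 1700101I11Rik, whose reads cannot be told apart without strand.

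Gabarap, the most abundant of the family per kb, had 615.6 and 409.6 CPM in controls, and 554.6, 484.7 and 525.9 CPM with verapamil. All treated values fell between the 2 controls (log2 0.03, SE 0.18, edgeR adjusted p = 0.926), and leaving out a control turned the Gabarap estimate to 0.35 (control replicate 1) or -0.24 (control replicate 3), past the threshold either way (edgeR adjusted p = 0.0128 and 0.0381). Map1lc3a, the gene of another LC3 protein, also had its treated values between the controls, at 46.74 and 25.02 CPM in controls and 30.1, 28.72 and 28.69 CPM with verapamil (log2 -0.30, adjusted p = 0.402). Leaving out control replicate 1 gave 0.23 and leaving out control replicate 3 gave -0.68 for Map1lc3a (edgeR adjusted p = 0.0986 and 0.000333). Map1lc3b, the gene of the usual autophagosome marker LC3B, had 246.9 and 233.2 against 276.9, 265.6 and 257.9 CPM, without overlap (log2 0.15, SE 0.092, adjusted p = 0.258). Gabarapl2 had 80.99 and 68.86 against 86.17, 88.68 and 81.43 CPM (log2 0.19, adjusted p = 0.251).

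Many cargo receptors bind both ubiquitin and ATG8 proteins. Optn encodes optineurin, a receptor for damaged mitochondria and bacteria, and had 33.62 and 28.82 CPM in controls and 74.52, 71.69 and 75.71 CPM with verapamil. Every treated library was above both controls. The log2 fold change was 1.24 (SE 0.115, edgeR adjusted p = 0.00121), and estimates with 1 library left out ran from 1.14 to 1.36.

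Tax1bp1, a receptor that also restrains inflammatory signalling, had 164.5 and 196.3 CPM in controls and 293.2, 296 and 291.6 CPM with verapamil. Its 3 treated libraries lay close together and above both controls. The log2 fold change was 0.70 (SE 0.11, edgeR adjusted p = 0.00666).

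Sqstm1, the gene of p62 and the most abundant receptor, did not pass. It had 1036 and 945.4 CPM in controls and 1039, 941.4 and 1007 CPM with verapamil (log2 0.01, SE 0.0994, edgeR adjusted p = 0.964). The groups overlapped. It shares 17.3% of its exon bases with Mrnip on the opposite strand. Nbr1, a large relative of p62, had 113.6 and 159.4 against 173.6, 180.4 and 183.5 CPM (log2 0.39, adjusted p = 0.114). Calcoco1, a receptor for endoplasmic reticulum, had 35.6 and 50.89 against 59.61, 60.17 and 59.59 CPM (log2 0.47, edgeR adjusted p = 0.0848). DESeq2's Wald test called Calcoco1 higher, as it did 12.7% of all genes, and did not call Nbr1. Treated libraries of both genes lay above both controls, and control replicate 1 was the lowest library. Leaving it out gave 0.17 for Nbr1 and 0.24 for Calcoco1, and leaving out control replicate 3 gave 0.66 and 0.75, both past the threshold (edgeR adjusted p = 0.00011 and 0.000135).

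Tecpr1 had the largest change of the 38 genes. Its product binds the ATG12-ATG5 conjugate, which also binds ATG16L1, and links autophagosomes and damaged lysosomes to the conjugation machinery. Tecpr1 levels were 141.5 and 167.7 CPM in controls and 466.7, 490.8 and 486 CPM with verapamil. The groups did not overlap. The log2 fold change was 1.64 (SE 0.114, edgeR adjusted p = 0.000598), and it lay between 1.48 and 1.77 in all 12 alternative analyses. No exon base of Tecpr1 is shared with another gene.

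**Figure D3:**
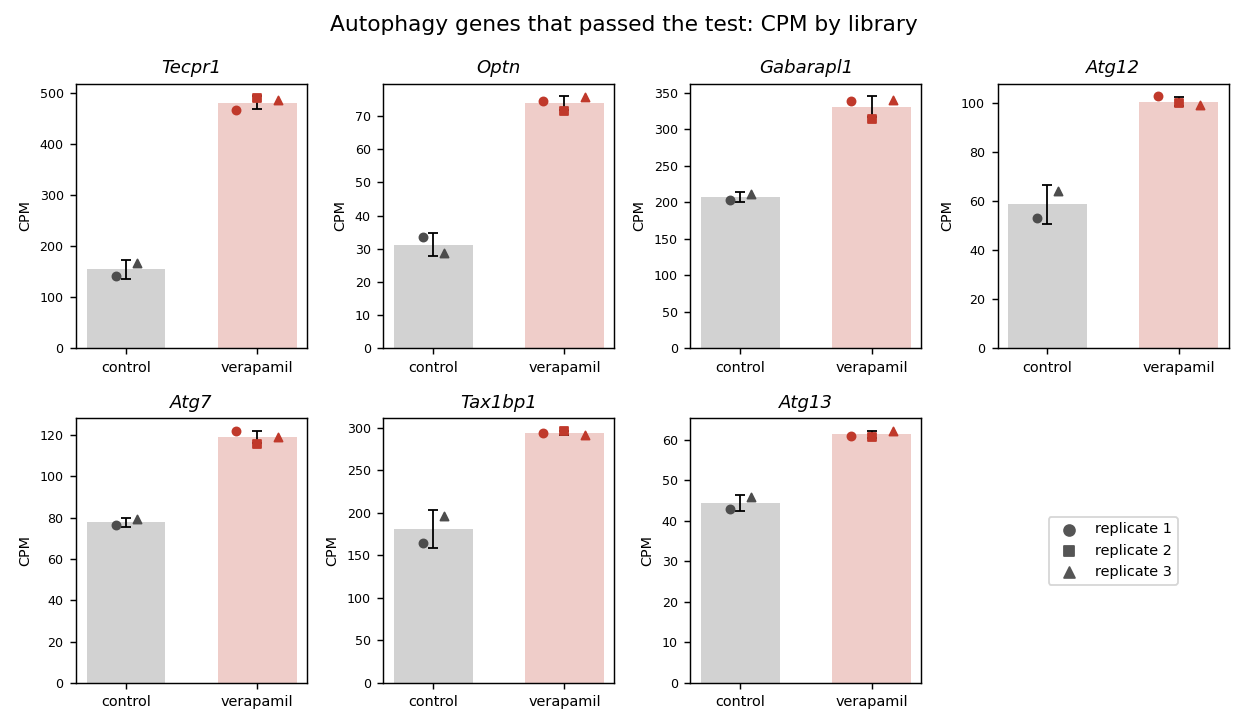
CPM of the 7 autophagy genes that passed the test, with 1 point per library (shape gives the replicate number), a bar for the group mean starting at 0 and a whisker for the SD (n = 2 controls, n = 3 verapamil). In each panel every verapamil point lies above both control points.

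On GRCm38.p6 (RefSeq), Tecpr1 (Entrez 70381) lies on chromosome 5 at 144194442 to 144223615, Optn (71648) on chromosome 2 at 5020521 to 5064399 and Gabarapl1 (57436) on chromosome 6 at 129533192 to 129542331. Atg12 (67526) lies on chromosome 18 at 46732417 to 46741724, Atg7 (74244) on chromosome 6 at 114643127 to 114860604, Tax1bp1 (52440) on chromosome 6 at 52713692 to 52766780 and Atg13 (51897) on chromosome 2 at 91674612 to 91710597. Each is a protein-coding gene.

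Ratios of 2 relatives within 1 library do not depend on the scaling between libraries. For 12 such pairs the log2 ratio was compared with a two-sided exact permutation test over the 5 libraries, which cannot give a p below 0.1. In 3 pairs the groups did not overlap. The Gabarapl1 to Gabarapl2 ratio was 2.5 and 3.08 in controls and 3.93, 3.54 and 4.17 with verapamil (log2 difference 0.48, exact permutation p = 0.1, adjusted over the 12 pairs p = 0.6). The Atg16l1 to Atg16l2 ratio was 3.11 and 2.87 in controls and 2.59, 2.38 and 2.35 with verapamil (log2 difference -0.29, exact permutation p = 0.1, adjusted p = 0.6). The Wipi1 to Wipi2 ratio was 0.258 and 0.287 in controls and 0.208, 0.203 and 0.245 with verapamil (log2 difference -0.32, exact permutation p = 0.2, adjusted p = 0.6).

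The other 9 pairs overlapped. Ulk1 to Ulk2 was 0.87 and 0.72 in controls and 0.808, 0.769 and 0.685 with verapamil. Atg14 to Uvrag, the alternative partners of the lipid kinase, was 0.386 and 0.339 against 0.406, 0.379 and 0.315. Sqstm1 to Nbr1 was 9.12 and 5.93 against 5.99, 5.22 and 5.49, a difference of -0.40 on the log2 scale, or -0.09 with control replicate 1 left out and -0.72 with control replicate 3 left out. Map1lc3a to Map1lc3b was 0.189 in control replicate 1, and 0.107 to 0.111 in the other 4 libraries. In these last 2 pairs it was control replicate 1 that stood apart from the other libraries. Atg4c to Atg4d was 1.38 and 3.37 against 2.67, 2.9 and 3.13, and here control replicate 1 was the lone low library. Atg2a to Atg2b was 1.96 and 1.65 against 1.8, 1.53 and 1.53, and Atg4a to Atg4b was 0.493 and 0.562 against 0.608, 0.55 and 0.609. Gabarap to Gabarapl2 was 7.6 and 5.95 against 6.44, 5.47 and 6.46, and Map1lc3b to Gabarap was 0.401 and 0.569 against 0.499, 0.548 and 0.49. The controls lay apart by more than the verapamil libraries in the Map1lc3b to Gabarap ratio.

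The controls differed from each other more than the treated libraries did. The median of the fold between control replicates 1 and 3 over the 38 genes was 1.17, and that of the range over the 3 verapamil libraries was 1.07. Of the 38 genes 5 differed by more than 1.5-fold between the controls (Rb1cc1, Atg4c, Atg4d, Map1lc3a and Gabarap), as did 25.2% of all genes, and 0 of the 38 spanned more than that over the verapamil libraries. Across the 38 genes, log2 transcript length and the log2 ratio of control replicate 3 to control replicate 1 had a Pearson correlation of 0.582, and across 12345 tested genes it was 0.609; genes share their libraries and are not independent replicates. For the change with verapamil the same correlation was 0.341 over the 38 genes and 0.184 over all. Control replicate 3 was above control replicate 1 for 24 of the 38 genes, Rb1cc1 (7.61 kb) among them, and below it for 14, Map1lc3a (1.11 kb) among them. Atg4d, at 5.95 kb, went against the trend with a log2 ratio of -0.59, and Gabarapl1, at 1.18 kb, had 0.06.

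With the length trend removed in each library, 14 of the 38 genes were called, all higher (18.1% of all genes were called higher and 21.7% lower in that fit). These were the 7 genes above and Uvrag, Atg3, Atg4c, Atg5, Gabarapl2, Nbr1 and Calcoco1. RNA quality was not given for these samples, and its part in the length trend was not tested.

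**Figure D4:**
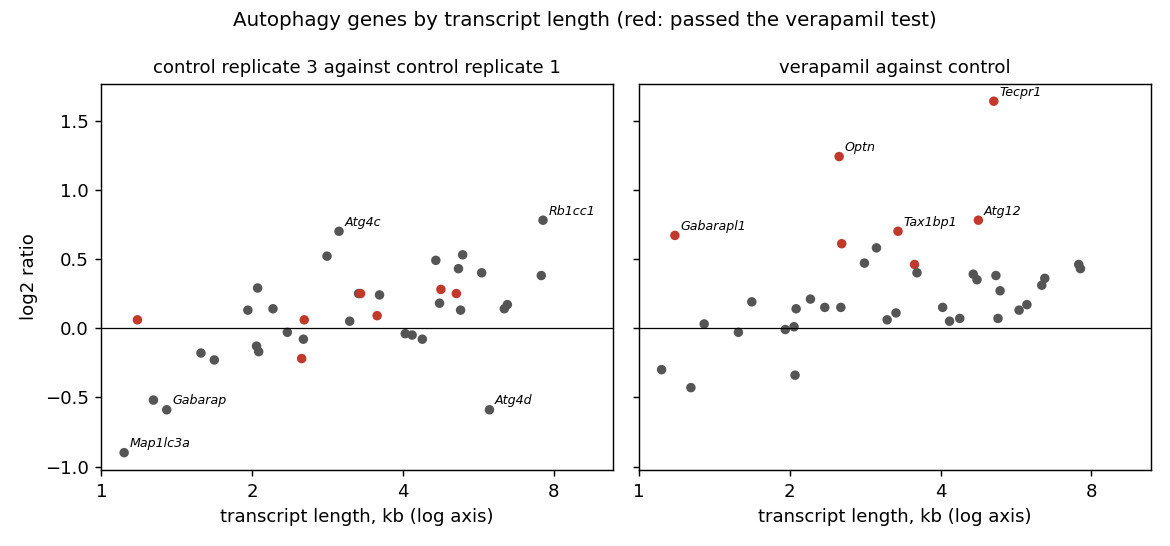
Each point is 1 of the 38 autophagy genes, by transcript length in kb (log axis); the left panel shows the log2 ratio of control replicate 3 to control replicate 1 and the right panel the log2 fold change with verapamil. The left panel climbs with length (Pearson correlation 0.582), and the red points, the 7 genes that passed, are spread over the lengths in the right panel.

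Other genes of the pathway were taken from 5 lists. Genes for fusion of the autophagosome with the lysosome were called higher in 9 of 20 cases and lower in 0, beside 9.99% and 15.4% of all genes. Their median log2 fold change was 0.38. At an unadjusted p under 0.05, 13 were higher and 1 lower, where 17.5% and 22.0% of all genes were. DESeq2's Wald test called 10 higher and 0 lower, where 12.7% and 15.2% were. Vps18 and Vps11, subunits of the HOPS tether, rose by 0.60 (SE 0.0896, edgeR adjusted p = 0.00577) and 0.50 (SE 0.0983, adjusted p = 0.0146). The GTPase Rab7, which recruits HOPS, rose from 608.1 and 646.1 CPM to 902.6, 853.1 and 853.4 CPM (log2 0.47, adjusted p = 0.0146). Plekhm1, a RAB7 effector, rose from 144.7 and 157.2 to 196.1, 200.2 and 189.9 CPM (log2 0.37, adjusted p = 0.033), and Snap29, a fusion SNARE, from 65.05 ± 17.2 to 105.2 ± 4.24 CPM. The lysosomal membrane proteins Lamp1 and Lamp2 rose by 0.39 and 0.33 (adjusted p = 0.0448 and 0.0478). Only 1, 1 and 0 of the 20 genes passed without verapamil replicates 1, 2 and 3, where 11.8%, 12.4% and 11.6% of all genes did. The median of the 20 was 0.24 with control replicate 1 dropped, and dropping control replicate 3 instead gave 0.54. Upper quartile scaling left 5. Of 12 alternatives, 6 ended the calls of Plekhm1 and Lamp1 and 7 that of Lamp2, and the Plekhm1 estimate was 0.17 (edgeR adjusted p = 0.2) with the length trend removed.

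Of 20 tested selective receptors and adaptors outside the 38 genes, 6 were called higher and 1 lower (median 0.28), beside 9.99% and 15.4% of all genes. Retreg1, a receptor for endoplasmic reticulum, rose from 48.86 and 58.23 CPM to 97.39, 95.45 and 98.68 CPM (log2 0.86, SE 0.113, edgeR adjusted p = 0.00371). Tollip, an endosomal adaptor, and Bnip3l, a mitochondrial receptor, rose by 0.59 and 0.52 (adjusted p = 0.00577 and 0.0106). Ncoa4, the receptor for ferritin, had 261.8 and 462 CPM in controls and 637.1, 649.8 and 630 CPM with verapamil (log2 0.82, adjusted p = 0.0467). With control replicate 1 left out the Ncoa4 estimate was 0.47, and with control replicate 3 left out 1.29. Stbd1, a glycogen receptor, fell from 2.99 ± 0.666 to 0.944 ± 0.38 CPM (log2 -1.65, adjusted p = 0.0194). Between 2 and 3 of the 20 passed without 1 of the verapamil libraries, where 11.6% to 12.4% of all genes were called. The median of these 20 was 0.20 with control replicate 1 dropped, and dropping control replicate 3 instead gave 0.31.

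Of 14 regulators of autophagosome formation 2 rose and 0 fell (median 0.23), beside 9.99% and 15.4% of all genes. DESeq2's Wald test called 3 higher and 0 lower, where 12.7% and 15.2% of all genes were. In edgeR's test the risen genes were Sh3glb1, which bends membranes, by 0.51 (edgeR adjusted p = 0.0095) and the scramblase Tmem41b by 0.56 (adjusted p = 0.0117). Leaving out any 1 verapamil library left 0 of the 14, where 11.6% to 12.4% of all genes were called. The median of the 14 was 0.18 with control replicate 1 dropped, and dropping control replicate 3 instead gave 0.42. Among 20 genes of nutrient and energy control upstream of ULK1, 2 rose and 1 fell (median -0.07), beside 9.99% and 15.4% of all genes. Tsc1 and Tsc2, the paired inhibitors of mTORC1, rose by 0.96 and 0.34 (adjusted p = 0.0247 and 0.0476), where leaving out control replicate 1 gave 0.64 for Tsc1, and Ddit4, a stress-induced mTORC1 inhibitor, fell by 0.90 (adjusted p = 0.0086). Of these 20, 0 to 1 passed without 1 of the verapamil libraries, 5 without control replicate 1 (35.3% of all genes) and 13 without control replicate 3 (60.9% of all genes). The Tsc2 call was lost in 8 of 12 alternatives, with an estimate of 0.14 when the length trend was removed.

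Transcription factors of autophagy genes included 2 of 13 that rose and 1 that fell (median 0.12), beside 9.99% and 15.4% of all genes. Foxo4 rose from 16.77 and 20.36 to 32.27, 33.68 and 34.36 CPM (log2 0.85, SE 0.127, edgeR adjusted p = 0.00574). Nfe2l2, the antioxidant factor NRF2, rose by 0.51 (adjusted p = 0.0145), and Trp53 fell by 0.61 (adjusted p = 0.0114). Tfeb, a master regulator of lysosome genes, had 58.03 and 41.07 against 63.84, 56.61 and 60.23 CPM (log2 0.28, edgeR adjusted p = 0.245). Over the 12 alternatives the Tfeb estimate ran from 0.0548 to 0.557. Its relatives Tfe3 and Mitf had estimates of -0.18 each (adjusted p = 0.186 and 0.301). Of the 13 factors, 1 passed in each fit that left out a verapamil library, where 11.6% to 12.4% of all genes were called. Their median was 0.06 with control replicate 1 dropped, and dropping control replicate 3 instead gave 0.12.

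**Figure D5:**
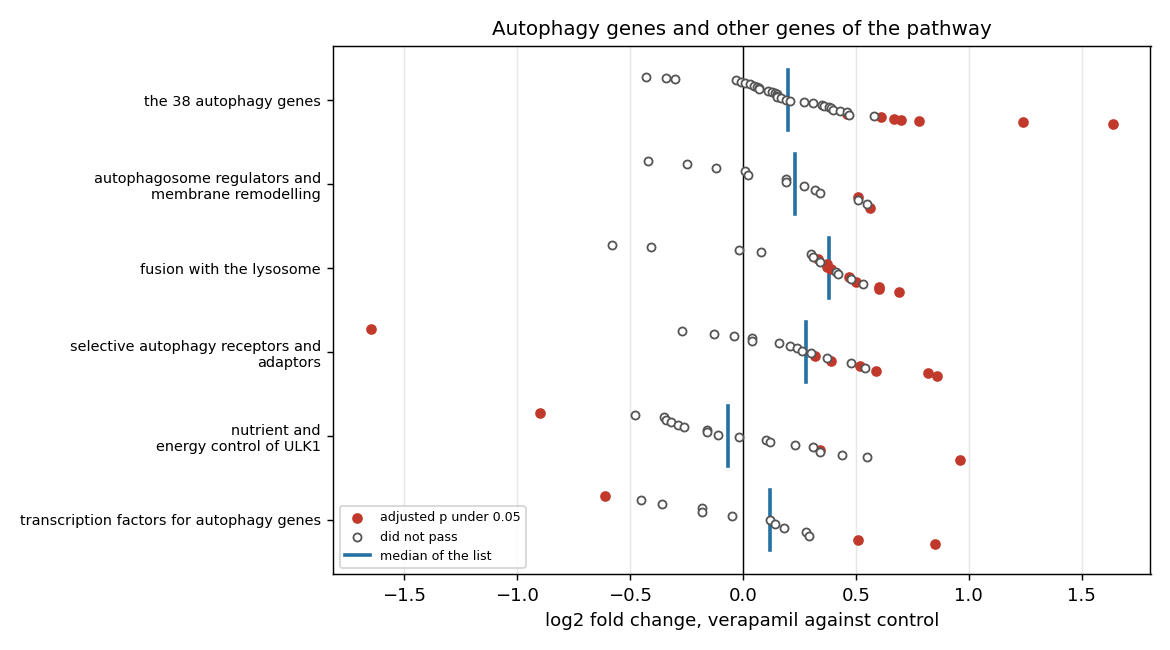
Log2 fold change of the 38 autophagy genes and of the genes of 5 other lists of the pathway, with 1 point per gene (red: adjusted p under 0.05) and the median of each list as a blue line. The fusion list has the highest median, 0.38, and the nutrient control list the lowest, -0.07.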

How the data were processed

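The authors deposited 1 table of estimated counts of reads per gene, with 2 decimals and, judged from the values, no normalization. The submitters' processing notes name the builds GRCm38 and mm10. For the aligner, the counter and the annotation, names were not given in the sources used here. Per the labels' protocols, a SMARTER mRNA kit made the libraries. Counts were rounded to whole numbers. edgeR 4.0.16 (R 4.3.3) scaled libraries by TMM, filtered genes (minimum count 10, minimum total count 15) and fitted the quasi-likelihood model with group as the only term, leaving 3 residual degrees of freedom. The script was tested on simulated counts. P-values were adjusted over all 12619 genes. Each SE was computed from the log2 fold change and its F statistic. DESeq2 1.42.0 was an alternative. The plan allowed for 3 controls, and 2 were used.

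Transcript lengths are from GENCODE M21 (APPRIS principal coding transcripts, or the longest), as are exon overlaps and stretches of 50 bases shared with other genes. Promoters and gene positions are from RefSeq. Per-library values are given for called genes, the largest and smallest change of each step and the paralog pairs, and for some further genes chosen after their values were seen. From each other list up to 3 called genes per direction are named, with Plekhm1, Rab7, Tfeb, Tfe3, Mitf, Lamp1 and Lamp2, and Snap29 was added after its values were seen. Autophagy genes, lists and tests were chosen with earlier results of these data known. All libraries differed beyond Poisson noise. Variance was 1.97 to 3.93 times that of counting between verapamil libraries and 26 times between the controls. Across groups it was 16.6 to 17.3 times for pairs holding control replicate 3, less than for the pair of controls. For pairs holding control replicate 1 it was 43.6 to 54.9 times. The Pearson correlation went the other way for control replicate 3, at 0.9718 for the pair of controls and at most 0.9627 across groups.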

Additional observations from a re-analysis of the deposited data

How the results depend on the processing

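The test was repeated under 12 alternatives. Of 456 estimates for the 38 autophagy genes, 390 kept their direction and side of the threshold, 32 passed newly with the same sign, 4 (all Atg13) no longer passed and 30 changed sign, none of them for the 7 called genes. With Gabarap without control replicate 3, which also changed sign, 33 passed newly. Every fit without 1 library, control or verapamil, has fewer residual degrees of freedom than the main fit. Leaving out 1 library gave 6 to 23 called autophagy genes and 1460 to 7808 of all genes, and the cause of this range was not tested. The same range was 0 to 10 for regulators of autophagosome formation, 0 to 18 for fusion with the lysosome, 2 to 15 for selective receptors, 0 to 13 for nutrient control and 1 to 8 for transcription factors. It was -0.0551 to 0.344 for Ulk2, -0.0714 to 0.0532 for Wipi2, -0.09 to 0.50 for Atg4d, -0.124 to 0.0658 for Atg10, -0.68 to 0.23 for Map1lc3a, -0.24 to 0.35 for Gabarap and -0.0565 to 0.0796 for Sqstm1 (log2 fold changes). The log2 difference in ratio ranged from -0.22 to 1.07 for Atg4c to Atg4d, -0.79 to 0.03 for Map1lc3a to Map1lc3b, -0.15 to 0.35 for Map1lc3b to Gabarap and -0.72 to -0.09 for Sqstm1 to Nbr1.

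With the transcript length trend removed, 14 autophagy genes and 4909 of all genes were called, with 6 regulators of autophagosome formation, 7 nutrient control genes and 7 transcription factors. Signs then changed for Ulk1 (-0.11), Ulk2 (-0.0532), Becn1 (-0.0726), Wipi2 (0.0727), Atg4b (-0.077), Atg4d (-0.0595) and Atg10 (0.12). Upper quartile factors moved the median of all genes from -0.01 to -0.13 and that of the autophagy genes from 0.20 to 0.08, called 7 of these higher and 1 (Wipi1) lower, and left 5 fusion genes. Signs changed for Ulk1 (-0.0504), Becn1 (-0.0563), Pik3c3 (-0.0018), Atg4b (-0.073), Atg16l1 (-0.0543), Gabarap (-0.10) and Sqstm1 (-0.11). The stricter filter on low counts left 4 selective receptors and gave Gabarap -0.0209 and Sqstm1 -0.0376; with no filter Wipi2 was 0.00018. The cause of these shifts was not tested.

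Replicate numbers are shared between groups, but nothing in the labels says that they pair cultures. Deviations from the group means correlated at 0.289 for the pair numbered 1 and 0.0224 for the pair numbered 3. Control replicate 3 and verapamil replicate 2, which share no number, also had 0.289. With 2 controls their deviations mirror each other, so these values cannot show whether replicates are paired. With the replicate block 7 autophagy genes were called (Atg4c in, Atg13 out at adjusted p = 0.0772), 4 fusion genes and 3317 of all genes, and Atg10 was 0.0529.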
